A study of Rattus norvegicus with 6 samples.

Results

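The genes described here encode proteins that hold epithelial cells together: tight junction proteins, cadherins with their catenins, and desmosomal proteins. They were chosen by gene symbol from the probe sets annotated with exactly 1 symbol, and for each gene the probe set of highest mean over the arrays was kept. This gave 61 of the 14506 genes measured, each with 1 probe set. They comprised 24 claudins, 5 other tight junction proteins, 15 cadherins, 5 catenins, 7 desmosomal proteins and 5 genes that matched by name only. A further 23 protein-coding genes of the rat RefSeq table carry matching symbols and are not analysed here, among them Dsp, Dsg2, Cgn and Cdh3.

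RNA was taken from the endosalpinx, the mucosa that lines the oviduct. The donors were 6 adult female rats of the Sprague-Dawley strain, weighing 240 to 280 g (241 to 280 g for unmated replicate 2), with 1 array for each animal and 3 animals in each group. Mated females had been placed with a fertile male at 2200 h of pro-estrus, had sperm in the smear or a vaginal plug 30 min later, stayed with the male, and were killed 3 h after mating with abundant semen in the uterus. Unmated females were kept alone and killed at 0130 h of estrus with uterine edema. Company of a male and handling cannot be told apart from mating in this design. Each value is the log2 signal of 1 probe set after RMA, the authors' normalization, which gives all arrays a similar distribution.

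Tight junctions seal the space between neighbouring epithelial cells near their apical side. Claudins form the strands and decide which ions and how much water pass between cells, occludin and tricellulin belong to the strands and to the corners where cells meet, and the zonula occludens (ZO) proteins tie the strands to actin. Below them, adherens junctions join cells through E-cadherin, which binds beta-, alpha- and p120-catenin, and desmosomes join cells through desmogleins and desmocollins, whose plaque of plakoglobin, plakophilins and desmoplakin anchors keratin filaments. In the oviduct these junctions separate the luminal fluid, in which sperm and eggs travel, from the stroma.

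Transcripts of each junction type were detected in the lining. Background was gauged from 1256 receptor genes for odorants and pheromones, which are known mainly from sensory neurons, and the 95th percentile of their means was a log2 signal of 7.13. Of the 61 junction genes 39 (63.9%) had a mean above this limit, against 71.1% of all genes. Above it lay 15 of 24 claudins, 5 of 5 other tight junction proteins, 6 of 15 cadherins, 4 of 5 catenins and 5 of 7 desmosomal proteins. The other 22 genes, described as within the receptor range, had means between 4.44 for Cdh19 and 7.09 for Cldn5. Signals of different probe sets depend on their probes, so levels are set against this limit only and not against each other.

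**Figure D1:**
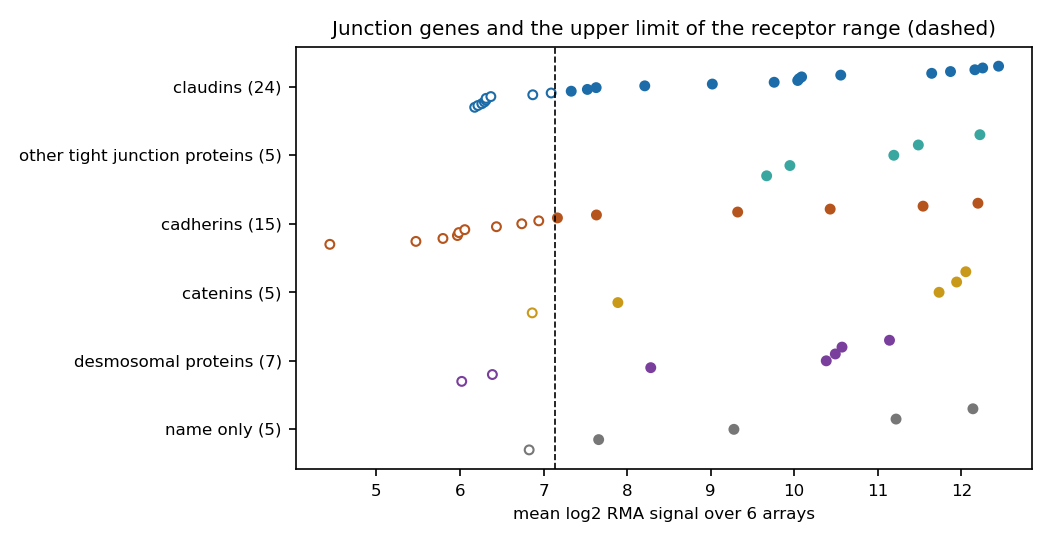
Mean log2 RMA signal over 6 arrays (horizontal axis) of each junction gene, 1 point per gene, by class (rows, number of genes in brackets); filled points lie above the dashed upper limit of the receptor range at 7.13 and open points lie within it. All 5 other tight junction proteins lie above the limit, while 9 of the 15 cadherins lie within it.

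No junction gene passed the test between mated and unmated rats after adjustment over all genes. The smallest adjusted p of a junction gene was 0.984 by limma, and 0 of 14506 genes (0%) passed the threshold of 0.05. At an unadjusted p under 0.05 there were 3 junction genes (4.92%), all higher in mated rats, namely the desmocollin Dsc2, the tight junction scaffold Tjp3 and the cadherin Cdh15. Over all genes 4.57% reached this value, 3.02% higher and 1.55% lower in mated rats, so the junction genes lay near the background. The count of higher genes was 6 without mated replicate 1 and 1 without either mated replicate 3 or unmated replicate 1, and the count of lower genes, 0 on all arrays, was 5 without unmated replicate 3 and 1 without either mated replicate 2 or mated replicate 3. The 3 mated and 3 unmated values did not overlap for 7 junction genes (11.5%), 5 higher and 2 lower in mated rats, against 8.47% of all genes (5.24% higher and 3.23% lower). Among the 39 junction genes above the receptor range, 2 (Dsc2 and Tjp3) had an unadjusted p under 0.05 and the groups of 5 were apart, against 3.52% and 7.88% of all genes above it.

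The intervals bound how large a difference in signal could have gone unseen. For 58 of the 61 junction genes the 95% confidence interval of the difference, not adjusted for the number of genes, lay inside a 1.5-fold change in either direction, as it did for 13880 of the 14506 genes. These 58 were 36 of the 39 genes above the receptor range and all 22 within it. Signals within the range were near background, so an interval there bounds the signal and not the transcript. The exceptions, all above the range, were Dsc2, the claudin Cldn6 and the cadherin Cdh16, whose intervals are given with their values. The median log2 fold change was 0.023 over the junction genes and 0.010 over all genes. As deposited, 39 junction genes lay higher and 22 lower in mated rats, but a second quantile normalization gave 29 higher and 32 lower. Subtracting the median of each array gave 33 higher, 27 lower and 1 at 0. Over all genes 53.2% lay higher as deposited. The balance of directions among the junction genes therefore moved with the scaling of the arrays.

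**Figure D2:**
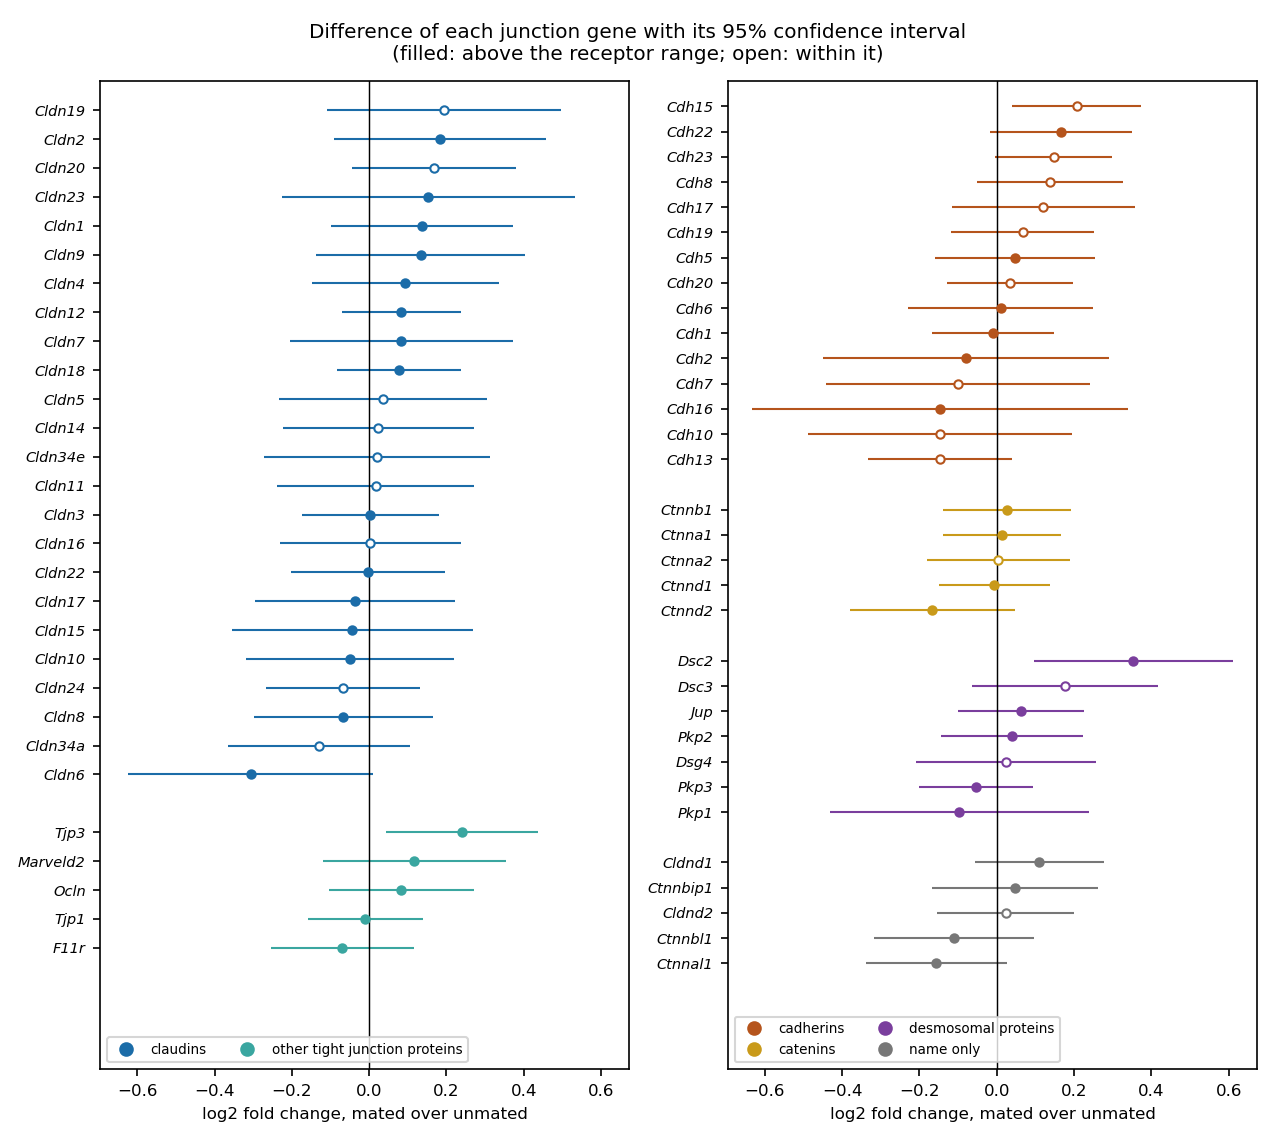
Log2 fold change of each junction gene, mated over unmated (horizontal axis), with its 95% confidence interval from the moderated fit over 3 mated and 3 unmated arrays; colours give the class, filled points lie above the receptor range and open points within it. Only the intervals of Dsc2, Tjp3 and Cdh15 leave out 0, before adjustment for the number of genes.

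Among the desmosomal genes, Dsc2, a desmocollin of simple as well as stratified epithelia, showed the largest difference of any junction gene. Its log2 signal was 10.64, 10.32 and 10.72 in mated rats, against 10.21, 10.29 and 10.12 in unmated rats. All mated values lay above all unmated values, and mated replicate 2 lay just above the highest unmated array. The log2 fold change was 0.35 (95% confidence interval 0.10 to 0.61; unadjusted p = 0.0133 and adjusted p = 0.984 by limma), and it lay between 0.27 and 0.47 when each array was left out in turn. Dsc3, a desmocollin mainly of stratified epithelia and the genomic neighbour of Dsc2, lay within the receptor range, with a log2 fold change of 0.18 (-0.06 to 0.42). Of 4 measured markers of stratified epithelium, the keratins Krt1, Krt10 and Krt14 lay within the receptor range and Krt13 lay above it.

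The desmosomal plaque genes showed smaller differences. Jup, which encodes plakoglobin, a protein of both desmosomes and adherens junctions, was at 10.56, 10.55 and 10.70 in mated rats, against 10.53, 10.53 and 10.56 in unmated rats. The groups overlapped, with mated replicate 3 highest, and the log2 fold change was 0.063 (-0.099 to 0.23). The plakophilin Pkp3 was at 8.25, 8.26 and 8.26 in mated rats, against 8.28, 8.36 and 8.29 in unmated rats. All mated values of Pkp3 lay below the unmated ones. Its log2 fold change was -0.053 (95% confidence interval -0.20 to 0.094; unadjusted p = 0.428 by limma). Pkp2, another plakophilin, averaged 11.16 ± 0.09 in mated rats and 11.12 ± 0.09 in unmated rats (SD, n = 3 each). Pkp1, the plakophilin best known from stratified epithelia, varied more within groups than between them, at 10.68, 10.19 and 10.46 in mated rats and 10.78, 10.45 and 10.39 in unmated rats. Over the 7 desmosomal genes the median log2 fold change was 0.040, with 5 higher and 2 lower in mated rats. Dsg4, a desmoglein of hair follicles, lay within the receptor range and differed by 0.023.

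Of the tight junction proteins other than claudins, the scaffold gene Tjp3 differed most. Tjp3, which encodes ZO-3, was at 9.76, 9.77 and 9.84 in mated rats, against 9.40, 9.58 and 9.67 in unmated rats. The groups did not overlap, and the unmated values were spread more widely than the mated ones. The log2 fold change was 0.24 (95% confidence interval 0.04 to 0.44; unadjusted p = 0.0225 and adjusted p = 0.984 by limma). It was 0.16 without unmated replicate 1, the lowest array, and 0.30 without unmated replicate 3.

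The gene for the related scaffold ZO-1, Tjp1, varied little in either group. It was at 12.18, 12.20 and 12.27 in mated rats, against 12.24, 12.22 and 12.22 in unmated rats, with a log2 fold change of -0.010 (-0.16 to 0.14). The unmated values lay inside the mated range. The strand proteins and the junctional adhesion molecule gave overlapping groups as well. Ocln, which encodes occludin, was at 11.66, 11.44 and 11.48 in mated rats, against 11.51, 11.41 and 11.41 in unmated rats, with a log2 fold change of 0.083 (-0.10 to 0.27). Its highest value came from mated replicate 1 and the other mated arrays lay between the unmated values. Marveld2, which encodes tricellulin and lies next to Ocln in the genome, averaged 10.01 ± 0.11 in mated rats and 9.89 ± 0.16 in unmated rats (SD, n = 3 each). F11r, the gene of junctional adhesion molecule A, was at 11.15, 11.04 and 11.28 in mated rats, against 11.27, 11.22 and 11.19 in unmated rats, with a log2 fold change of -0.070 (-0.26 to 0.12). Over these 5 genes the median log2 fold change was 0.083, with 3 higher and 2 lower in mated rats.

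**Figure D3:**
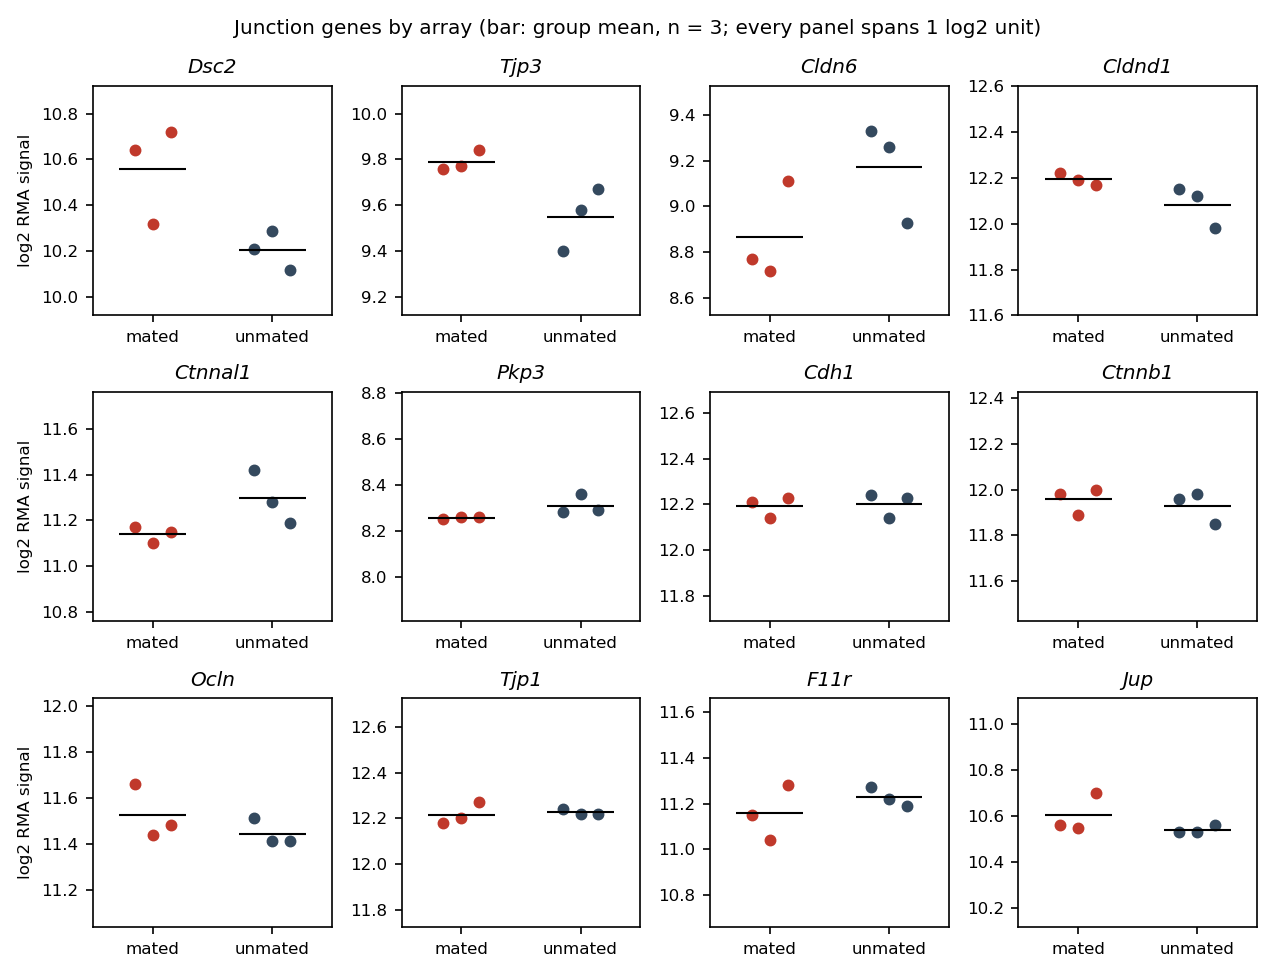
Log2 RMA signal (vertical axis) of 12 junction genes on each array, with 3 mated rats left and 3 unmated rats right in each panel; the bar is the group mean and every panel spans 1 log2 unit. Groups are apart for Dsc2, Tjp3, Cldnd1, Ctnnal1 and Pkp3, overlap for the other genes, and nearly coincide for Cdh1 and Tjp1.

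Of the 24 claudins, 0 had an unadjusted p under 0.05 by limma. Their median log2 fold change was 0.022, with 16 higher and 8 lower in mated rats. Over the 15 claudins above the receptor range it was 0.077, with 9 higher and 6 lower, against 0 over all genes above it. In no claudin were the groups apart. Cldn6, a claudin known from embryonic epithelia, had the smallest p of the class, at 8.77, 8.72 and 9.11 in mated rats, against 9.33, 9.26 and 8.93 in unmated rats. One array of each group crossed over: mated replicate 3 lay above unmated replicate 3. The log2 fold change of Cldn6 was -0.31 (95% confidence interval -0.62 to 0.01; unadjusted p = 0.0564 and adjusted p = 0.984 by limma), and it was -0.43 without either of these arrays (unadjusted p = 0.0127 without the mated one and 0.0132 without the unmated one, by limma; adjusted p over all alternatives 0.593 to 1). Cldn9, its neighbour in the genome, differed by 0.13 (-0.14 to 0.40). Cldn20, the claudin of smallest p among those higher in mated rats, lay within the receptor range at 6.33, 6.57 and 6.29 in mated rats, against 6.25, 6.29 and 6.15 in unmated rats.

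Claudins that are typical of simple epithelia were well above the receptor range in both groups. Cldn3 averaged 12.45 ± 0.11 in mated rats and 12.44 ± 0.01 in unmated rats (SD, n = 3 each), and its log2 fold change was 0.0033 (-0.17 to 0.18). Cldn4 and Cldn7, which like Cldn3 belong to most simple epithelia, differed by 0.093 (-0.15 to 0.33) and 0.083 (-0.21 to 0.37). Both were highest on unmated replicate 3, at 12.02 for Cldn4 and 11.87 for Cldn7, and lowest on unmated replicate 2, at 11.64 and 11.40. Cldn1, a sealing claudin, was at 10.34, 10.04 and 10.00 in mated rats, against 9.94, 9.96 and 10.07 in unmated rats. Cldn8, also a sealing claudin, averaged 9.73 ± 0.14 in mated rats and 9.79 ± 0.14 in unmated rats (SD, n = 3 each).

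Claudins that form ion channels between cells were measured too, since the oviduct lining secretes fluid. Cldn10, whose isoforms form anion or cation pores, was at 11.95, 12.37 and 12.37 in mated rats, against 12.28, 12.29 and 12.27 in unmated rats. The unmated arrays nearly coincided and mated replicate 1 lay apart below them. Cldn2, a pore for cations and water, was at 9.96, 10.03 and 10.41 in mated rats, against 10.02, 9.91 and 9.92 in unmated rats. Only mated replicate 3 stood out, and the log2 fold change was 0.18 (-0.09 to 0.46). Cldn15, a cation pore known from the intestine, averaged 8.19 ± 0.20 in mated rats and 8.23 ± 0.21 in unmated rats (SD, n = 3 each). Of the remaining claudins above the receptor range, Cldn12, Cldn17, Cldn18, Cldn22 and Cldn23, the log2 fold changes ran from -0.037 for Cldn17 to 0.15 for Cldn23. Among the claudins within the receptor range were Cldn16 and Cldn19, known mainly from the kidney, and Cldn14, known from the kidney and inner ear.

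The transcript of E-cadherin, the main cadherin of epithelia, differed little between the groups. Cdh1, its gene, was at 12.21, 12.14 and 12.23 in mated rats, against 12.24, 12.14 and 12.23 in unmated rats. The values of the groups nearly coincided, and the log2 fold change was -0.010 (95% confidence interval -0.17 to 0.15). The differences of its catenin partners were also small. Ctnnb1, which encodes beta-catenin, was at 11.98, 11.89 and 12.00 in mated rats, against 11.96, 11.98 and 11.85 in unmated rats, a log2 fold change of 0.027 (-0.14 to 0.19). Ctnna1, which encodes alpha-E-catenin, differed by 0.013 (-0.14 to 0.17). Ctnnd1, which encodes p120-catenin, differed by -0.0067 (-0.15 to 0.14) and stayed within 0.050 log2 units over all 6 arrays. The catenins mainly of the nervous system were Ctnna2, within the receptor range, and Ctnnd2, at 7.73, 7.86 and 7.83 in mated rats, against 7.95, 8.14 and 7.83 in unmated rats. Ctnnd2 had the smallest p of the catenins, with a log2 fold change of -0.17 (-0.38 to 0.05). Its groups overlapped, with mated replicate 2 at 7.86 above unmated replicate 3 at 7.83. Over the 5 catenins the median log2 fold change was 0.0033.

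The other cadherins above the receptor range were Cdh2, Cdh5, Cdh6, Cdh16 and Cdh22. Cdh6, known as a cadherin of kidney epithelium, was at 11.33, 11.69 and 11.62 in mated rats, against 11.59, 11.57 and 11.45 in unmated rats. Cdh16, also named for the kidney, spread most of all junction genes, at 9.88, 10.46 and 10.73 in mated rats, against 10.30, 10.76 and 10.45 in unmated rats. Both genes were lowest on mated replicate 1. The interval of Cdh16 ran from -0.63 to 0.34 around a log2 fold change of -0.15, so these arrays say little about it. Cdh2, the N-cadherin of mesenchyme, nerve and mesothelium, was at 9.37, 9.18 and 9.30 in mated rats, against 9.68, 9.42 and 8.99 in unmated rats. Its spread lay in the unmated group, whose replicate 1 was the highest and replicate 3 the lowest of all arrays. Cdh22, a cadherin of the brain, averaged 7.72 ± 0.10 in mated rats and 7.55 ± 0.07 in unmated rats (SD, n = 3 each), with a log2 fold change of 0.17 (-0.02 to 0.35).

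Of the 9 cadherins within the receptor range, 2 had groups that were apart, against 8.47% of all genes. Cdh15, the M-cadherin of skeletal muscle, was at 6.99, 7.08 and 7.07 in mated rats, against 6.75, 6.90 and 6.87 in unmated rats. Its log2 fold change was 0.21 (95% confidence interval 0.04 to 0.37; unadjusted p = 0.0211 and adjusted p = 0.984 by limma), and 0.16 without unmated replicate 1 or after a second quantile normalization. Cdh23, a cadherin of the inner ear hair cells, was at 6.81, 6.85 and 6.78 in mated rats, against 6.62, 6.70 and 6.68 in unmated rats. Cdh13, the T-cadherin of vessels and muscle, had the smallest p of the cadherins lower in mated rats, at 6.40, 6.40 and 6.29 in mated rats, against 6.62, 6.51 and 6.40 in unmated rats. Over the 15 cadherins the median log2 fold change was 0.033, with 9 higher and 6 lower in mated rats, and the 3 genes of the classical type I group had a median of -0.010.

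The junction genes of vessels lay at the edge of the receptor range. Cdh5, the cadherin of endothelium, was at 7.08, 7.19 and 7.30 in mated rats, against 7.19, 7.01 and 7.23 in unmated rats. Cldn5, the claudin of endothelium, was at 7.12, 7.33 and 6.88 in mated rats, against 6.97, 7.13 and 7.12 in unmated rats. The groups overlapped in both genes, with log2 fold changes of 0.047 (-0.16 to 0.25) and 0.037 (-0.23 to 0.31), and the mean of Cdh5 over all arrays lay just above the limit and that of Cldn5 just below it. Of 7 measured endothelial markers 4 lay above the receptor range. At an unadjusted p under 0.05, the endothelial receptor Tie1 was higher in mated rats, with a log2 fold change of 0.33. Tek and Emcn, both within the receptor range, were lower at such a p, at -0.29 and -0.22. The adjusted p by limma was 0.984 for each of these markers. Over all genes 4.57% had an unadjusted p under 0.05.

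Of the 5 genes that matched by name only, 2 had groups that were apart, against 8.47% of all genes. Cldnd1, a membrane protein with a claudin domain, was at 12.22, 12.19 and 12.17 in mated rats, against 12.15, 12.12 and 11.98 in unmated rats, with a log2 fold change of 0.11 (-0.06 to 0.28). Ctnnal1, which encodes alpha-catulin, a relative of alpha-catenin, was at 11.17, 11.10 and 11.15 in mated rats, against 11.42, 11.28 and 11.19 in unmated rats, with a log2 fold change of -0.16 (-0.34 to 0.03). For both genes the gap between the groups was narrower than the spread of the unmated arrays. Ctnnbip1, an inhibitor of beta-catenin in Wnt signalling, differed by 0.047, and Ctnnbl1, a protein associated with the spliceosome, by -0.11. Cldnd2, another protein with a claudin domain, lay within the receptor range.

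Set side by side with all their members, no junction class was shifted on all mated arrays beyond the unmated ones. For each array the median deviation of a class from its genes' unmated means was taken, as a description with no test. The claudins were at -0.020, 0.048 and 0.058 on the mated arrays, against -0.010, -0.0033 and 0.018 on the unmated arrays. The other tight junction proteins were at 0.21, -0.0033 and 0.043 on the mated arrays, against 0.043, -0.0067 and -0.033 on the unmated arrays. In this class the high value came from mated replicate 1 alone. The cadherins were at 0.0067, 0.057 and 0.083 on the mated arrays, against -0.033, 0.030 and 0.020 on the unmated arrays. The catenins were at 0.0033, -0.040 and 0.033 on the mated arrays, against -0.0067, 0.033 and -0.027 on the unmated arrays. The desmosomal proteins were at 0.020, 0.010 and 0.010 on the mated arrays, against 0.0033, 0.050 and -0.020 on the unmated arrays. Over all members, mated and unmated arrays overlapped in each of the 5 classes. With only the genes above the receptor range, they overlapped in every class but the claudins. The 15 claudins above it were at 0.037, 0.047 and 0.047 on the mated arrays, against -0.013, -0.027 and 0.0067 on the unmated arrays. All genes were at 0.020, 0.0033 and 0.0033 on the mated arrays and at 0 on each unmated array.

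**Figure D4:**
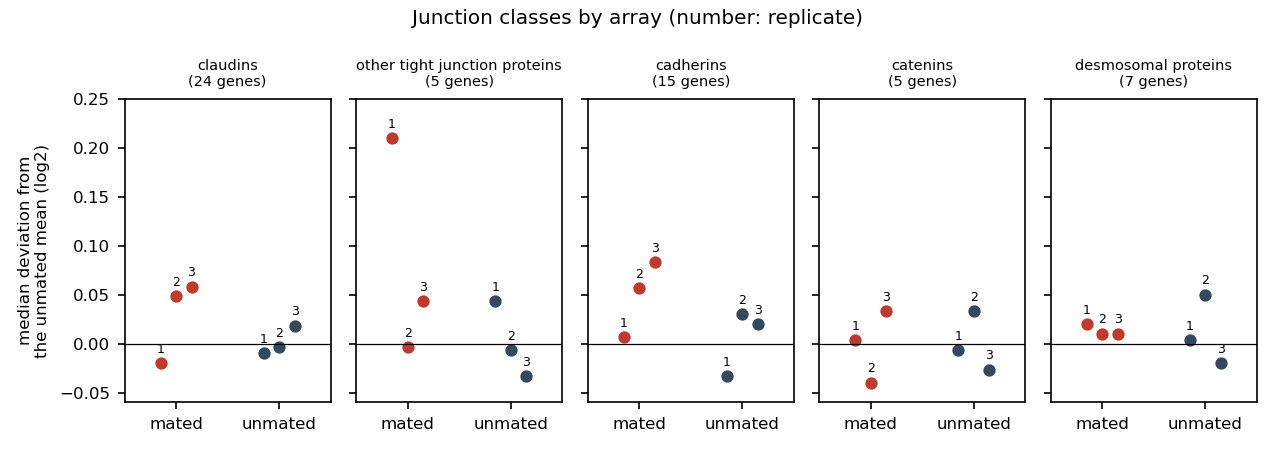
Median deviation of each junction class from the unmated mean of its genes, in log2 units (vertical axis), on each of 3 mated (left) and 3 unmated (right) arrays, with the replicate number above each point. With all members of each class taken, the groups overlap in all 5 classes, and mated replicate 1 lies at 0.21 for the other tight junction proteins.

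Animals of one group also differed from each other. Mated replicate 1 was the sole highest or lowest array for 42.6% of the junction genes, more often than any other array, as it was over all genes (38.8%). It was the sole lowest array for 17 junction genes and the sole highest for 9. Over all 14506 genes the lean was the other way, with 2363 sole lowest and 3265 sole highest. The median SD of the claudins was 0.18 in mated rats and 0.10 in unmated rats, and over all genes it was 0.10 in mated rats and 0.090 in unmated rats. That of the catenins was 0.059 in each group. Mated replicate 1 also lay at one end of the first principal component of all genes, which held 30.9% of the variance, at 12.9, while the other mated arrays lay at -11.0 and -10.9 and the unmated arrays at 3.59, 8.25 and -2.89.

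Markers of the cells in the lining are given because cell types carry different junction genes, and in such bulk samples fewer cells of a type and less RNA per cell cannot be told apart. All 6 measured epithelial markers lay above the receptor range, 4 higher and 2 lower in mated rats, and all 5 measured markers of ciliated cells lay above it, 0 higher and 5 lower. The mean deviation of the epithelial markers ran from -0.043 to 0.15 in mated rats and from -0.083 to 0.11 in unmated rats, and that of the ciliated markers ran from -0.16 to 0.11 in mated rats and from -0.11 to 0.099 in unmated rats. All 7 fibroblast markers, 6 of them above the receptor range, lay lower in mated rats, Dpt most at a log2 fold change of -0.46 (adjusted p = 0.984 by limma), with mean deviations from -0.28 to -0.13 in mated rats and from -0.24 to 0.15 in unmated rats. Unmated replicate 3 was the lowest unmated array for fibroblast, smooth muscle and mesothelial markers. Of the 2 measured genes listed as mesothelial markers, Msln lay higher in mated rats, at a log2 fold change of 0.060, and Wt1 lower, at -0.090. Their mean deviations ran from -0.037 to 0.023 in mated rats and from -0.19 to 0.20 in unmated rats. Of 6 smooth muscle markers, all above the receptor range, 1 lay higher, 4 lower and 1 at 0, with mean deviations from -0.17 to 0.042 in mated rats and from -0.22 to 0.17 in unmated rats. Of 4 leukocyte markers 2 lay higher and 2 lower, 2 of them above the receptor range. The part of these cells in the differences of the junction genes was not tested.

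Genes of proteins that work with these junctions gave no call either, with 0 past the threshold in each of 3 lists of partner genes and an adjusted p of at least 0.984 by limma. Of 25 measured polarity and scaffold genes 13 lay higher and 12 lower in mated rats, at a median log2 fold change of 0.023, and 0 had an unadjusted p under 0.05. The smallest p belonged to Cgnl1, which encodes paracingulin, at 0.18 (-0.02 to 0.38), among the genes higher in mated rats, and to Magi1, a scaffold, at -0.11 (-0.26 to 0.04), among those lower. Of 13 other junction membrane proteins 9 lay higher and 3 lower, and 2 had an unadjusted p under 0.05, against 4.57% of all genes. The 2 were Esam, an adhesion molecule of endothelium, at 0.25 (0.02 to 0.48), and Jam3, a junctional adhesion molecule, at -0.23 (-0.44 to -0.02). Of 12 transcription factors known to act on epithelial junction genes 7 lay higher and 5 lower, 0 with an unadjusted p under 0.05, led by Twist1 at 0.15 (-0.03 to 0.34) and by Grhl2, an activator of Cdh1 and Cldn4, at -0.067 (-0.24 to 0.11). The repressors Snai1, Snai2 and Zeb2 lay within the receptor range and Zeb1 above it.

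The promoters of the 3 junction genes with the smallest unadjusted p above the receptor range are shown to give their sequence context. They are from RefSeq, build GRCr8, and run from 250 bases before to 50 bases after the start that RefSeq gives for the gene, 5′ to 3′ along the strand of the gene. Dsc2 is at chr18:11757417-11757716 on the minus strand, Tjp3 at chr7:9084174-9084473 on the plus strand and Cldn6 at chr10:13215558-13215857 on the plus strand. Capitals mark the E-box bound by Snail and Zeb repressors (CAGGTG, or CACCTG on the other strand) and the GC box (GGGCGG, or CCGCCC on the other strand).
Dsc2: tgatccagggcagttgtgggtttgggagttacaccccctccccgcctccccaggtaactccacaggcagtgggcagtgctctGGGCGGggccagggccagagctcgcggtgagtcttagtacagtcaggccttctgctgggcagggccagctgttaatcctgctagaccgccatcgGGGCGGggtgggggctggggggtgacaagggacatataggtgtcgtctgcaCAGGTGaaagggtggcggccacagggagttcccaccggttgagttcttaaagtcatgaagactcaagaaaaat
Tjp3: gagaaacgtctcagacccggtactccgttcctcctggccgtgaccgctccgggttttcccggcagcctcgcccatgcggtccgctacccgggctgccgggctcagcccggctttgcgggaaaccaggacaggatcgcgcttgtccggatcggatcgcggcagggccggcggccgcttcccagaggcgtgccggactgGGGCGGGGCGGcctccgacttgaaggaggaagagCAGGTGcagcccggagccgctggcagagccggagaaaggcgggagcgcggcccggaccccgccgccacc
Cldn6: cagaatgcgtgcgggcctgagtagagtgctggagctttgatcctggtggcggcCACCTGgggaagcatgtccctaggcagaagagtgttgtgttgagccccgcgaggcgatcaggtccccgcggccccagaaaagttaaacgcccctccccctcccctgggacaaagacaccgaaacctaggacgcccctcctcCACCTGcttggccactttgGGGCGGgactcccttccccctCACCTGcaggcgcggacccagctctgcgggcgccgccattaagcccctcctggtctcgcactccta
Dsc2 held 1 E-box, 23 bases before the start, and 2 GC boxes, and its GC content was 60.7%. Tjp3 held 1 E-box, 19 bases before the start, and 2 GC boxes that overlap each other, in a sequence of 72.7% GC. Cldn6 held 3 E-boxes, 197, 56 and 16 bases before the start, and 1 GC box.

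Such motifs were common among promoters. Of the 61 junction genes 47 had a promoter in the table, and 12 of these (25.5%) held the E-box, against 18.7% of all 27457 promoters of the same length. By class the E-box was in 6 of 19 claudin promoters, 3 of 5 of other tight junction proteins, 2 of 5 desmosomal ones, 1 of 4 catenin ones and 0 of 9 cadherin ones. The GC box was in 51.1% of the junction promoters and in 34.9% of all promoters, while 50.2% of the promoters of measured genes held it. The E-box was in 8 of 28 promoters of junction genes above the receptor range and in 4 of 19 of those within it. Among all measured genes it was in 18.7% of the promoters of genes above the range and in 18.3% of those within it. The site of Grainyhead-like factors, AACCGGTT, which reads the same on both strands, was in 0 of the 47 and in 0.164% of all promoters. A match is a description of these letters and not evidence of binding.

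Several junction genes are neighbours in the genome. In the annotation of GRCr8, 8 pairs of junction genes were direct neighbours among protein-coding genes. Both members lay above the receptor range in 4 pairs, namely Cldn3 with Cldn4, Cldn6 with Cldn9, Cldn8 with Cldn17 and Ocln with Marveld2, and only 1 member in 3 pairs. In these 3 pairs Cldn1, Cldn22 and Dsc2 lay above the range and their neighbours Cldn16, Cldn24 and Dsc3 within it. Cdh7 and Cdh19, the remaining pair, both lay within it.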

How the data were processed

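The authors deposited a table of log2 signal for every probe set on every array. Per the submitters' processing notes they come from RMA and Affymetrix Expression Console, and per the labels 0.3 µg of total RNA was labelled by a whole-transcript sense protocol. Versions, batches, scan dates and the genome build are not given in the sources used here. Of 29214 probe sets, 15310 had 1 gene symbol, 323 several and 13581 none listed. All 61 junction genes matched the GRCr8 RefSeq table by Entrez identifier under the same symbol.

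All 6 arrays, grouped by their titles, entered limma 3.58.1 (R 4.3.3; lmFit and eBayes, no block), two-sided, with Benjamini-Hochberg adjustment over 14506 genes and a threshold of 0.05; the procedure was tested on simulated data. Intervals are moderated 95% intervals, unadjusted. The number of arrays limits the precision. Values were given for members with an unadjusted p under 0.05, with groups apart above the receptor range, or with the smallest p of a class in each direction, and for anchor genes fixed by role; Cdh23 and other members given with values were chosen after their values were seen. The anchor Dsp is not analysed here. Members, lists and tests were chosen with earlier results of these data known. The replicate number was no pairing: the correlations of deviations between arrays of the same number were 0.014, -0.046 and 0.061. Alternatives covered the block, variance model, array weights, scaling, dim genes, probe sets and each array left out.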

Additional observations from a re-analysis of the deposited data

How the results depend on the processing

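Under 16 alternatives, 0 genes passed the threshold, junction genes included. With the replicate block, 0 junction genes passed, 3 were higher and 0 lower at an unadjusted p under 0.05, and no call changed. Of 279 values of named genes under alternatives, 267 kept their direction and 12 turned, all 12 in genes near 0. With array weights, 6 junction genes were higher and 1 lower at an unadjusted p under 0.05, the claudin and desmosomal medians were 0.065 and 0.067, and Tjp1 was at 0.00078. With an intensity trend 1 gene was lower. After a second quantile normalization the claudin median was -0.011, Cldn5 was at -0.0094 and Ctnnb1 at -0.0061. Without the dimmest 25% of genes the claudin median was 0.057, and without the dimmest 50% it was 0.083 and the cadherin median -0.045. With each array left out, 1 to 6 genes were higher and 0 to 5 lower, and the medians ran from -0.0033 to 0.071 for claudins, -0.0083 to 0.085 for cadherins and 0.040 to 0.085 for desmosomal proteins. Over the same fits Cdh1 ran from -0.042 to 0.017, Cdh5 from -0.020 to 0.10, Cldn5 from -0.073 to 0.15, Ctnnb1 from -0.013 to 0.060 and Tjp1 from -0.037 to 0.0083. The smallest adjusted p over all genes was 0.104 without mated replicate 1. The cause was not tested. With 3 arrays a group and signals near background for 22 of 61 genes, small differences were not detectable.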
